A study of Mus musculus with 16 samples.

Results

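The genes described here are Trp53, which encodes the transcription factor p53, and 8 genes known as its targets: Trp53inp1, Cdkn1a, Mdm2, Sesn1, Ccng1, Zmat3, Phlda3 and Gadd45a. They were found by symbol in the table of read counts, where all 9 were among the 43430 genes listed, and all 9 were among the 11004 genes with enough reads to be tested. No expression value entered the choice, but the list was drawn up with earlier results of these data known. The libraries came from bone marrow-derived macrophages of C57BL/6J mice, marrow cells matured with macrophage colony-stimulating factor and then moved for the experiment into minimal essential medium. There were 4 groups of 4 libraries: untreated cells in complete medium, untreated cells in medium lacking serine, and cells given 100 ng/mL lipopolysaccharide (LPS) in either medium. LPS is a component of the bacterial outer membrane that macrophages sense through Toll-like receptor 4, and RNA was taken 4 h after it was added. The labels name no edited gene and no DNA-damaging agent in any group. The libraries carry replicate numbers 1 to 4, and the labels do not say whether these stand for separate mice, so a p-value here reflects library-to-library spread, which may be technical apart from replicate 1. Replicate 1 differed in sex from the others, by the counts given below.

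The p53 protein is kept scarce in resting cells by Mdm2, a ubiquitin ligase that marks it for destruction and is itself made from a p53 target gene, which closes a negative feedback loop. When DNA damage, nutrient stress or other signals release p53 from Mdm2, it binds paired half-sites in DNA and switches on genes for cell cycle arrest, repair, metabolism or cell death. Much of this control acts on the p53 protein, which RNA sequencing does not see. Several targets also answer to other factors, among them NF-kB, C/EBP, forkhead and ATF4 proteins.

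The DNA before the start sites is shown because p53 half-sites are the feature these genes are known to share. RefSeq windows from 250 bases before to 50 bases after a start, on the GRCm38.p6 build, were held for 7 of the 9 genes, in 9 windows. Trp53inp1 and Zmat3 had no window. The p53 half-site consensus, a palindromic 10-base pattern that reads the same on either strand, matched in 6 of the 9 windows, 1 window each for 6 genes, and Phlda3 had no match. Over all 32851 windows of RefSeq, 8.36% held a match. A full site, meaning 2 exactly matching half-sites at most 13 bases apart, was found in 1 window of these genes, that of Cdkn1a, and in 24 of all windows (0.0731%). The 250 bases before the start of 4 of the genes are given 5′ to 3′ on the gene's strand, with matches to the half-site in capitals. They span chr17:29090729-29090978 (plus strand) for Cdkn1a, chr10:117710759-117711008 (minus strand) for Mdm2, chr11:69580109-69580358 (plus strand) for Trp53, and chr10:41887189-41887438 (plus strand) for Sesn1, where this is the downstream of 2 start windows.
Cdkn1a: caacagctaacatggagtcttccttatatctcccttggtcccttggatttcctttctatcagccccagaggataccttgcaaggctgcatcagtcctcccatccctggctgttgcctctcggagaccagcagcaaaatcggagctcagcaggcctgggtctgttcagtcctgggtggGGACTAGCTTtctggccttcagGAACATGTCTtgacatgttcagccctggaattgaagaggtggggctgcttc
Mdm2: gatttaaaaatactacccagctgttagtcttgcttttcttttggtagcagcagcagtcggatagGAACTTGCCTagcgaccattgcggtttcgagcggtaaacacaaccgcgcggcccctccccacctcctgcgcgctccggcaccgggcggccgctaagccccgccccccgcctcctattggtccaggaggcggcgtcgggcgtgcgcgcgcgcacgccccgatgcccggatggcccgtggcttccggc
Trp53: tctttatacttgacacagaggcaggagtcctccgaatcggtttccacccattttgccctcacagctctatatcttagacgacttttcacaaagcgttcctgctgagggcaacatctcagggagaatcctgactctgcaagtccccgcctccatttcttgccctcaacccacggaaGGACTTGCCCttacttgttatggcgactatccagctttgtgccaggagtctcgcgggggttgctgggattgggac
Sesn1: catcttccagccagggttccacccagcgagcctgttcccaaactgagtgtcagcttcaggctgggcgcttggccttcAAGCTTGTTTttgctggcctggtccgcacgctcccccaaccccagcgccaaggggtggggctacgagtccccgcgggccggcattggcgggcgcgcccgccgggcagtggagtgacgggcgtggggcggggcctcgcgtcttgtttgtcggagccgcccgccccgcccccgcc
With the start counted as position 0, the Cdkn1a half-sites lay at -73 to -64 and -51 to -42. The window shown is the upstream of 2 start windows of Cdkn1a. The downstream one (chr17:29093519-29093818) held no half-site. The Mdm2 match lay at -186 to -177, the Trp53 match at -75 to -66 and the Sesn1 match at -173 to -164. Those of Ccng1 (GGGCAAGCCT, at -185 to -176) and Gadd45a (GGGCTAGCCC, at -40 to -31) completed the set. A single NF-kB consensus match, GGGACTTTCC, lay across the Trp53 start at -5 to 4, and 8.46% of all windows held one. The forkhead motif GTAAACA, searched on both strands, matched once in the Mdm2 window (-153 to -147) and once in the upstream window of Sesn1 (22 to 28), against 3.65% of all windows. These are matches of letters only, and binding was not measured. Only exact matches were counted, so a site with a differing base is not marked. The stretch tgacatgttc directly after the second Cdkn1a half-site misses the pattern at its first base and was not counted. The marked pair is therefore not the only possible reading of that site. Cdkn1a and Mdm2, whose RNA rose with LPS, and Sesn1 and Ccng1, whose RNA fell, each had a window with a half-site. Sites outside these windows were not searched, and a link between half-sites and direction was not tested.

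Total counts ran from 2871477 to 10043362 per library, and the shallowest library, replicate 4 among untreated cells lacking serine, was the only one under 5760734. Its 20 most abundant genes took 23.1% of its counts, against 12.3% to 17.3% in the other libraries. Its TMM factor was 1.03, against 1.24 to 1.27 in the other untreated libraries, so it differed in composition as well as depth. The cause was not tested. All 10 macrophage markers on the list had counts in every group, with summed levels of 18758 to 29930 CPM (read counts per 1000000, after scaling of the library size by the TMM method of edgeR). A list of 8 neutrophil markers summed to 66.4 to 104 CPM in the replicate 1 libraries and to 7.86 to 27.1 CPM in the other 12. On that list S100a8 had 259 to 424 counts per group, S100a9 295 to 571 and Ltf 103 to 567. Camp had 24 to 40, Mpo at most 14, Retnlg at most 9, Elane at most 5 and Ly6g at most 1. The replicate 1 libraries had no Xist count and at least 556 counts of the Y-linked gene Ddx3y, and the other 12 had at least 351 of Xist and none of Ddx3y. Sex and anything else particular to replicate 1 therefore cannot be told apart.

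LPS moved these genes in both directions. With serine, 3 of the 9 rose (Cdkn1a, Mdm2 and, under TMM scaling only, Trp53), 5 fell (Sesn1, Phlda3, Trp53inp1, Zmat3 and Ccng1) and Gadd45a did not pass the test, an edgeR quasi-likelihood test with Benjamini-Hochberg adjustment over all genes and a threshold of 0.05. The same 3 rose and the same 5 fell without serine. In bulk RNA a changed share of cells and a changed amount of RNA per cell cannot be told apart. Large shares of all genes moved as well: 27.6% of those tested rose and 28.2% fell with serine, and 27.1% rose and 29.7% fell without it. Counts of this size are therefore common in these cells, and the direction and size of each gene carry the description. The median log2 fold change of the 9 genes was -0.44 with serine and -0.69 without, against -0.03 and -0.12 over all genes tested.

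**Figure D1:**
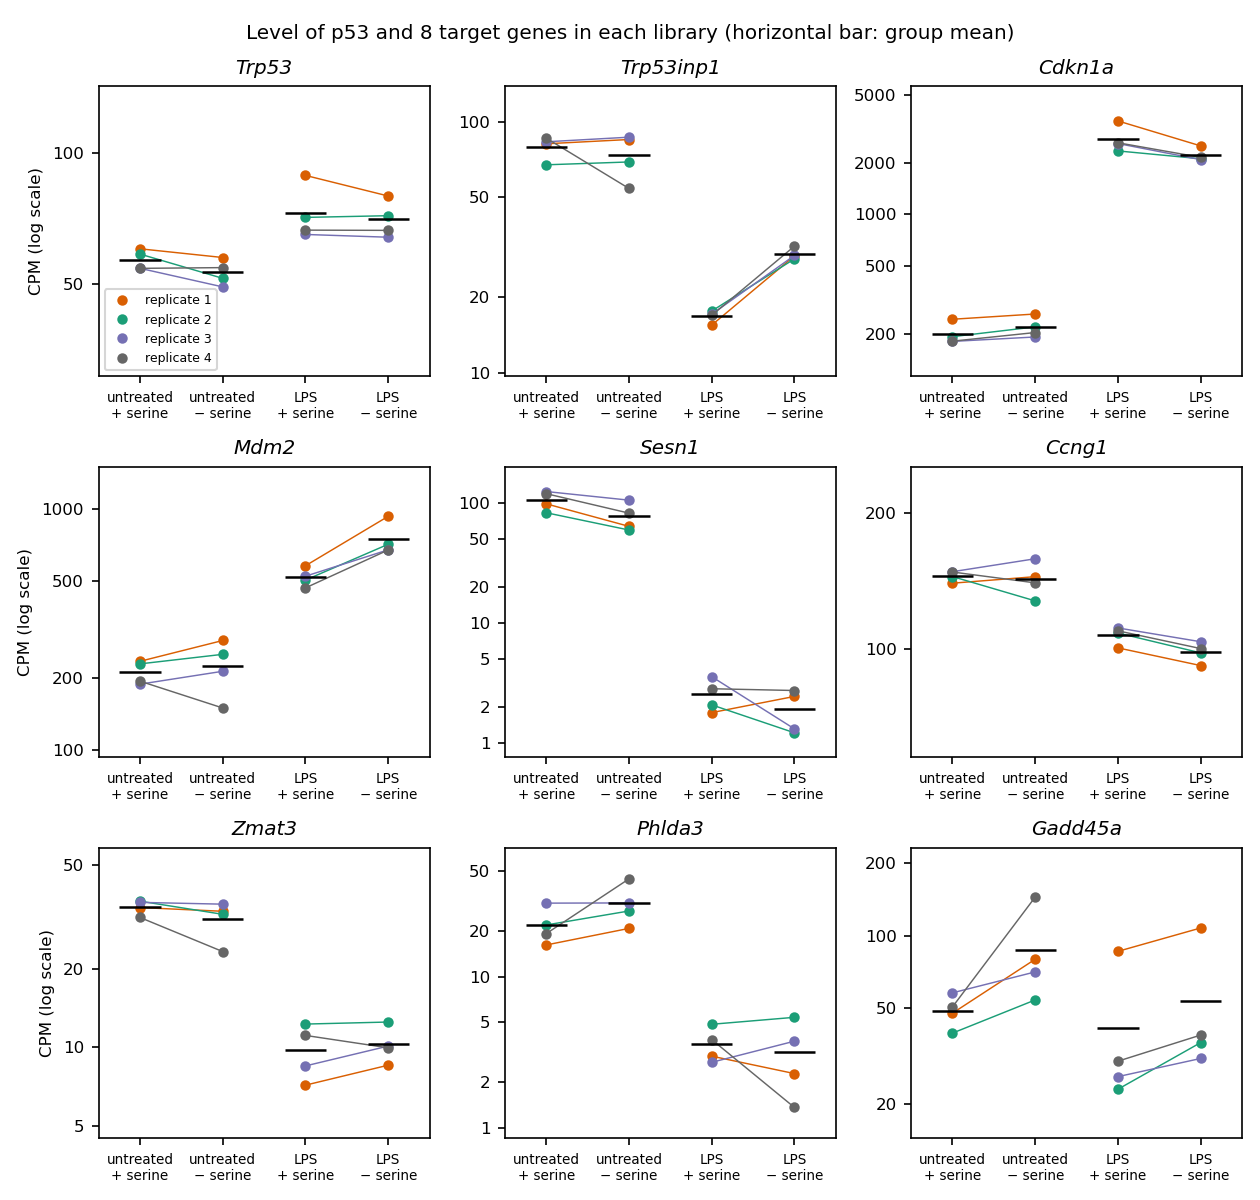
Level of p53 and 8 target genes in each library, in CPM on a log axis, for the 4 groups. Each point is a library, its colour gives the replicate number, lines join libraries of the same number with and without serine, and bars are group means. The untreated and LPS-treated libraries do not overlap for any gene except Gadd45a, whose replicate 1 libraries stand above the others after LPS. The share of all genes without overlap was not counted, either for LPS or for serine withdrawal.

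Trp53, the gene of p53 itself (chromosome 11, 69580359 to 69591873, mm10), rose slightly with LPS under TMM scaling. In untreated cells replicates 1 to 4 measured 60.3, 58.7, 54.4 and 54.4 CPM with serine and 57.6, 51.6, 49.4 and 54.6 CPM without. After LPS they measured 88.7, 71.1, 65.0 and 66.5 CPM with serine and 79.6, 71.8, 64.1 and 66.5 CPM without. Each LPS-treated library was higher than each untreated one, and replicate 1 was the highest with LPS in both media. The log2 fold change was 0.36 ± 0.11 (SE) with serine and 0.40 ± 0.11 without, with edgeR adjusted p of 0.0137 and 0.00657. This direction depended on the scaling of the libraries: TMM assumes that most genes keep their level, and scaling by total counts shifted the median gene by -0.62 and -0.57 (log2) in the LPS comparisons. Scaled that way, Trp53 changed by -0.26 with serine and -0.16 without (edgeR adjusted p 0.0925 and 0.283), and the share of called genes that were higher went from 49.5% to 20.6% with serine and from 47.7% to 20.4% without. The other 7 genes called in the LPS comparisons kept their direction under either scaling. When replicate 1 of LPS with serine was left out, the Trp53 change was 0.25 and missed the threshold (edgeR adjusted p 0.0633). In the authors' deposited table Trp53 had a log2 fold change of 0.41 without serine and an adjusted p of 0.088.

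Mdm2, the ubiquitin ligase that restrains p53 (chromosome 10, 117688888 to 117710758), rose in every pair of libraries with the same replicate number. Its untreated level was 234, 228, 188 and 193 CPM with serine and 285, 249.7, 212 and 149.8 CPM without. With LPS and serine it reached 581, 507, 526 and 470.4 CPM, and with LPS and no serine 930.2, 713, 676 and 675 CPM. The 3 ranges did not overlap: both untreated groups lay lowest, LPS with serine lay between, and LPS without serine lay highest. The LPS change was 1.31 ± 0.17 on the log2 scale with serine and 1.74 ± 0.17 without, with edgeR adjusted p of 6.3e-06 and 2.78e-07.

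Cdkn1a encodes p21, the inhibitor of cyclin-dependent kinases through which p53 halts the cell cycle, and it lies on chromosome 17 (29090979 to 29100722). It had the largest rise of the 9 genes. Untreated replicates 1 to 4 measured 243, 192, 181 and 181 CPM with serine and 261, 219, 192 and 203 CPM without. After LPS the level was 3509.7, 2344, 2589 and 2615 CPM with serine and 2508, 2109, 2084 and 2149.8 CPM without. No LPS-treated library came near the untreated range. The change was 3.79 ± 0.17 (log2, a 13.9-fold rise) with serine and 3.34 ± 0.16 (10.1-fold) without, with edgeR adjusted p of 1.54e-11 and 5.34e-11. Per kilobase of the gene length deposited by the authors, Cdkn1a was the most abundant of the 9 in all 4 groups, from 56.7 ± 8.47 (SD, n = 4) CPM per kilobase in untreated cells with serine to 786 ± 146 with LPS and serine. It also ranked highest when the longest coding transcript of the GENCODE annotation was used as length.

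Ccng1 encodes cyclin G1, a p53 target that works with protein phosphatase 2A on Mdm2. Its levels lay close together within each group: 139.7 to 148 CPM in untreated cells with serine, 128 to 158 CPM without, 100.3 to 111 CPM with LPS and serine, and 91.6 to 104 CPM with LPS and no serine. Under TMM scaling it fell by a small amount, with log2 changes of -0.44 ± 0.09 with serine and -0.54 ± 0.09 without (edgeR adjusted p 6.83e-04 and 1.06e-04). Scaled by total counts, the changes were larger, at -1.05 ± 0.11 and -1.11 ± 0.11 (edgeR adjusted p 2.41e-07 and 1.54e-07). The LPS-treated and untreated ranges did not overlap in either medium.

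Sesn1 encodes sestrin 1, which restrains the growth kinase complex mTORC1 when nutrients are short, and lies on chromosome 10 (41810574 to 41908424). It fell further than any of the other 8 genes. The untreated cells had 97.5, 82.2, 123 and 118 CPM with serine and 63.4, 59.1, 105 and 81.6 CPM without. After LPS 1.79, 2.07, 3.56 and 2.82 CPM remained with serine and 2.44, 1.21, 1.31 and 2.73 CPM without. The LPS values rest on 7 to 21 counts per library, so differences among them are poorly resolved, but every one lay far under the untreated range. The log2 change was -5.37 ± 0.27 with serine, a 41.2-fold fall, and -5.31 ± 0.28 without, a 39.6-fold fall, with edgeR adjusted p of 7.76e-11 and 1.53e-10. Sesn1 had the lowest level per kilobase of the 9 after LPS, while Zmat3 had the lowest in untreated cells, by either length.

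Trp53inp1 encodes a small protein induced by cell stress that acts in autophagy and in p53-dependent cell death, and lies on chromosome 4 (11156431 to 11174379). In untreated cells it measured 81.8, 67.5, 83.3 and 86.2 CPM with serine and 85.1, 69.3, 86.9 and 54.3 CPM without. With LPS it measured 15.5, 17.6, 17.1 and 16.9 CPM in the presence of serine and 29.2, 28.4, 29.3 and 32.0 CPM in its absence. All 3 levels were separate, with the untreated libraries highest and LPS with serine lowest. The LPS change was -2.25 ± 0.14 (log2) with serine and -1.32 ± 0.14 without, with edgeR adjusted p of 9.47e-10 and 4.04e-07.

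Zmat3 encodes a zinc finger protein that binds RNA, and Phlda3 a protein that competes with the kinase Akt for membrane lipids and so restrains it. Zmat3 measured 31.5 to 36.3 CPM in untreated cells with serine and 23.3 to 35.4 CPM without. After LPS its level was 7.14 to 12.3 CPM with serine and 8.52 to 12.5 CPM without. These are log2 changes of -1.83 ± 0.18 and -1.61 ± 0.18, with edgeR adjusted p of 1.6e-07 and 7.79e-07. Phlda3 went from 16.2 to 30.5 CPM in untreated cells with serine to 2.71 to 4.84 CPM with LPS, and from 20.8 to 44.2 CPM to 1.36 to 5.37 CPM in the medium without serine. Its log2 changes were -2.61 ± 0.33 and -3.23 ± 0.34 (edgeR adjusted p 4.22e-06 and 4.95e-07). For both genes the untreated and LPS-treated libraries were fully separate.

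Gadd45a encodes a stress sensor that binds cell cycle kinases and the activators of p38 and JNK signalling. Its levels with LPS split by replicate number. Replicates 1 to 4 had 86.0, 23.0, 25.9 and 30.04 CPM with LPS and serine and 108, 35.9, 30.8 and 38.6 CPM with LPS and no serine. In untreated cells the values were 47.6, 39.3, 57.8 and 50.5 CPM with serine and 79.8, 54.0, 70.7 and 144.7 CPM without, the highest being the library with the fewest reads. From untreated to LPS, replicate 1 rose and replicates 2, 3 and 4 fell, in both media. The change over all 4 was -0.23 ± 0.45 (log2) with serine and -0.69 ± 0.44 without (edgeR adjusted p 0.69 and 0.194). Fitted on replicates 2 to 4 only, an alternative chosen after seeing the data, the changes were -0.94 and -1.36, with edgeR adjusted p of 0.0219 and 0.00257. The neutrophil marker sums given above moved with replicate 1 too, in all 4 groups, and their part in the Gadd45a values was not tested. Gadd45a was the only one of the 9 to overlap an annotated gene, E230016M11Rik on the opposite strand, which had 32 counts over all libraries against 6495.

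**Figure D2:**
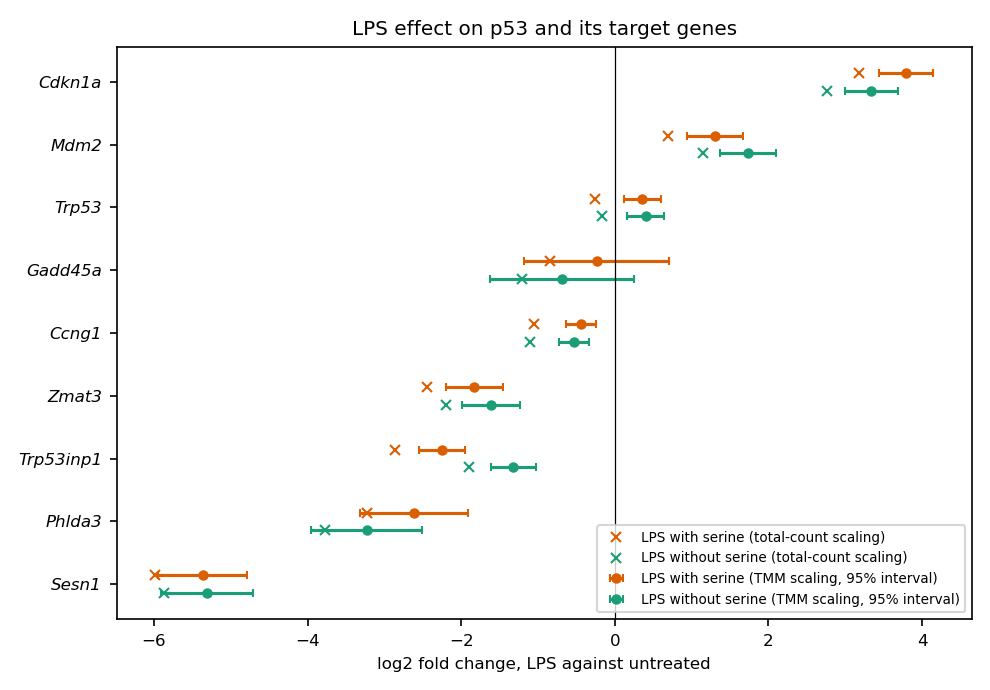
Log2 fold change of each gene after LPS, with serine (orange) and without (green). Circles with bars are TMM-scaled estimates with their 95% intervals, and crosses are the same changes scaled by total counts. Cdkn1a stands highest at 3.79 and 3.34, Sesn1 lowest at -5.37 and -5.31, and Trp53 is the only called gene whose crosses lie on the other side of 0.

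Serine withdrawal alone changed none of the 9 genes in untreated cells by the edgeR test, which called 0% of all genes there, with 548 genes at an unadjusted p under 0.05 and 13 genes called by DESeq2, none of them among the 9. The clearest value was that of Sesn1, lower without serine in 4 of 4 pairs. Its mean was 105 ± 19.1 CPM (SD, n = 4) with serine and 77.2 ± 20.8 CPM without, and the groups overlapped. The change was -0.45 ± 0.20 on the log2 scale, with an edgeR adjusted p of 0.816. Gadd45a was higher in 4 of 4 pairs (0.82 ± 0.44, edgeR adjusted p 0.816), though by 0.39 with the replicate block and without the shallow library. Phlda3 and Cdkn1a were also higher in 4 of 4 pairs, at 0.46 ± 0.28 and 0.14 ± 0.15, and Zmat3 was lower in 4 of 4, at -0.14 ± 0.16, with none of these passing the test. Phlda3 was 0.25 and Zmat3 -0.040 without the shallow library, and Cdkn1a was 0.037 without replicate 1 of the cells lacking serine.

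In LPS-treated cells, withdrawal raised Trp53inp1 alone among the 9, and 0.0545% of all genes rose. Its mean went from 16.8 ± 0.92 CPM (SD, n = 4) with serine to 29.7 ± 1.53 CPM without, the groups did not overlap, and all 4 pairs were higher. The log2 change was 0.83 ± 0.14, a 1.77-fold rise, with an edgeR adjusted p of 0.0475. LPS had brought Trp53inp1 down in both media, so the level without serine was still under every untreated library. The size of the change was stable, at 0.79 to 0.85 whichever library was left out, but the adjusted p was above 0.05 in 14 of those 16 fits, and also in those scaled by total counts (0.148) and without the low-count filter (0.0672). In the authors' deposited table the adjusted p was 1.81e-05.

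Mdm2 and Cdkn1a moved apart when serine was withdrawn from LPS-treated cells, without passing the test. Mdm2 went from 521 ± 46.1 CPM (SD, n = 4) to 748 ± 122 CPM, was higher in 4 of 4 pairs and did not overlap between groups. Its log2 change was 0.52 ± 0.17, with an edgeR adjusted p of 0.388, and 0.0199 in the authors' deposited table. Cdkn1a went from 2764 ± 512 CPM to 2213 ± 199 CPM and was lower in 4 of 4 pairs, with overlapping groups. Its log2 change was -0.32 ± 0.15 and the edgeR adjusted p 0.785, and the change was -0.18 without replicate 1 of the cells with serine. Trp53 differed by -0.05 ± 0.11, with a 95% interval of -0.29 to 0.19. Of the rest, Ccng1 was lower in 4 of 4 pairs (-0.13 ± 0.09) and Gadd45a higher in 4 of 4 (0.37 ± 0.45), while Sesn1 (-0.39 ± 0.36), Zmat3 (0.08 ± 0.18) and Phlda3 (-0.16 ± 0.39) were mixed, and none of these 5 passed. In the authors' deposited tables the 9 genes had the same sign as here, 9 of 9 in each of the 4 comparisons of groups.

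Libraries with the same replicate number deviated together from their group means, so the withdrawals were also fitted with the replicate number as a block. With the block Trp53inp1 remained the only one of the 9 called in LPS-treated cells, at 0.83 ± 0.14 with an edgeR adjusted p of 0.0171, where 0.663% of all genes rose, and Mdm2 had an adjusted p of 0.0671. The block with the shallow library left out was tried after seeing the data, and its common dispersion was 0.00618 against 0.0438 in the unpaired fit. In LPS-treated cells 3 of the 9 genes then passed. Trp53inp1 rose by 0.82 ± 0.09 and Mdm2 by 0.51 ± 0.06 (edgeR adjusted p 1.62e-05 and 2.59e-05), where 4.98% of all genes rose, and Cdkn1a fell by 0.31 ± 0.06 (edgeR adjusted p 0.00153), where 3.32% fell. In untreated cells Sesn1 passed as the only one of the 9, at -0.44 ± 0.09 (edgeR adjusted p 0.0241), where 0.081% of all genes fell. The values of these changes hardly differed from the unpaired ones, and their errors were smaller.

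Whether withdrawal acted differently with and without LPS was tested as a difference between the withdrawals. No gene of the 9 passed, and 0% of all genes did, with 253 at an unadjusted p under 0.05 and 1 called by DESeq2. Trp53inp1 had a difference of 0.93 ± 0.19 (log2, edgeR p 1.94e-04 unadjusted and 0.95 adjusted): it was -0.10 in untreated and 0.83 in LPS-treated cells. With the block and without the shallow library the difference was 0.78 ± 0.12 and passed (edgeR adjusted p 0.00802), where 0.036% of all genes were higher. For Cdkn1a, all 4 pairs were higher without serine in untreated cells and all 4 lower in LPS-treated cells. Its difference of -0.46 ± 0.21 did not pass (edgeR adjusted p 0.95), nor did it with the block and without the shallow library (-0.45 ± 0.08, edgeR adjusted p 0.0506).

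**Figure D3:**
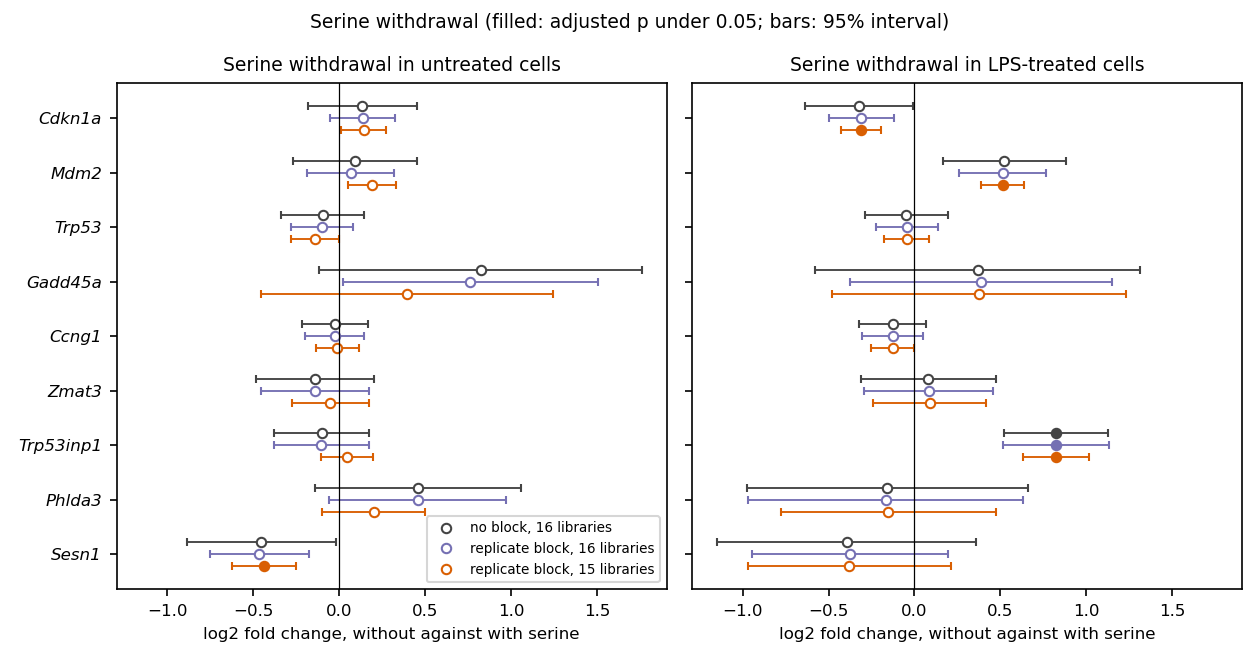
Log2 fold change of each gene on serine withdrawal, in untreated (left) and LPS-treated cells (right), from the unpaired fit, the fit with the replicate number as a block, and the block fit without the shallow library. Bars are 95% intervals and filled points have an adjusted p under 0.05. Trp53inp1 is filled in all 3 fits on the right, and Mdm2, Cdkn1a and, on the left, Sesn1 are filled only in the fit on 15 libraries.

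Paralogues of these genes were measured beside them. Of 13 on the list 10 were tested, and 4 rose and 2 fell with serine, 5 and 2 without, with medians of 0.37 and 0.74. Among all genes tested 27.6% rose and 28.2% fell with serine, and 27.1% and 29.7% without. Sesn1 fell, whereas Sesn2, which answers to the amino acid stress factor ATF4 as well as to p53, changed by 0.42 ± 0.27 with serine (edgeR adjusted p 0.206, and -0.19 when scaled by total counts) and rose by 1.10 ± 0.27 without (0.00222). With total counts the latter was 0.51 and not called (edgeR adjusted p 0.127). Sesn3 changed by 0.24 ± 0.34 and 0.39 ± 0.35, with edgeR adjusted p of 0.59 and 0.347, and by -0.38 and -0.21 when scaled by total counts. Phlda3 fell and Phlda1 rose, by 3.73 ± 0.36 with serine and 3.06 ± 0.37 without, from a level under 1 CPM to 4.11 to 9.15 CPM.

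Under TMM scaling Ccng1 fell a little while Ccng2 rose by 1.24 ± 0.15 with serine and 1.69 ± 0.15 without (edgeR adjusted p 3.06e-06 and 9.26e-08). Gadd45b, a target of NF-kB, went from 40.0 to 62.9 CPM over the untreated libraries to 318 to 656 CPM with LPS, log2 changes of 3.18 ± 0.22 and 3.12 ± 0.22. Gadd45g did not pass (0.32 ± 0.27 and -0.33 ± 0.27, edgeR adjusted p 0.333 and 0.318, the former -0.30 when scaled by total counts). Other pairs of paralogues shared a direction: Mdm4, a partner of Mdm2 that also inhibits p53, rose by 0.96 ± 0.30 and 1.41 ± 0.30 (the former not called with total counts, at 0.34, nor when replicate 1 of that LPS group was left out, at 0.78), and Trp53inp2 fell by 1.71 ± 0.12 and 1.52 ± 0.12. Without serine Mdm4 changed by 1.22, 1.02, 1.46 and 2.94 in the library pairs of replicates 1 to 4, the last holding the shallow library. Of the other inhibitors of the p21 family, Cdkn1b fell by 0.66 ± 0.26 and 0.69 ± 0.26. Its call was lost in 5 of 24 alternatives in each medium, 4 of them with 1 library left out. With serine the change was then -0.49 without replicate 1 of the untreated cells and -0.53, -0.56 and -0.64 without replicates 2, 3 and 4 of the LPS-treated cells (edgeR adjusted p up to 0.137). Without serine it was -0.56 and -0.66 without replicates 1 and 4 of the untreated cells, and -0.55 and -0.61 without replicates 2 and 3 of the LPS-treated cells (edgeR adjusted p 0.057 to 0.101). Cdkn1c had -0.47 ± 0.59 and -0.38 ± 0.59 and did not pass. Differences between paralogues were not tested.

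**Figure D4:**
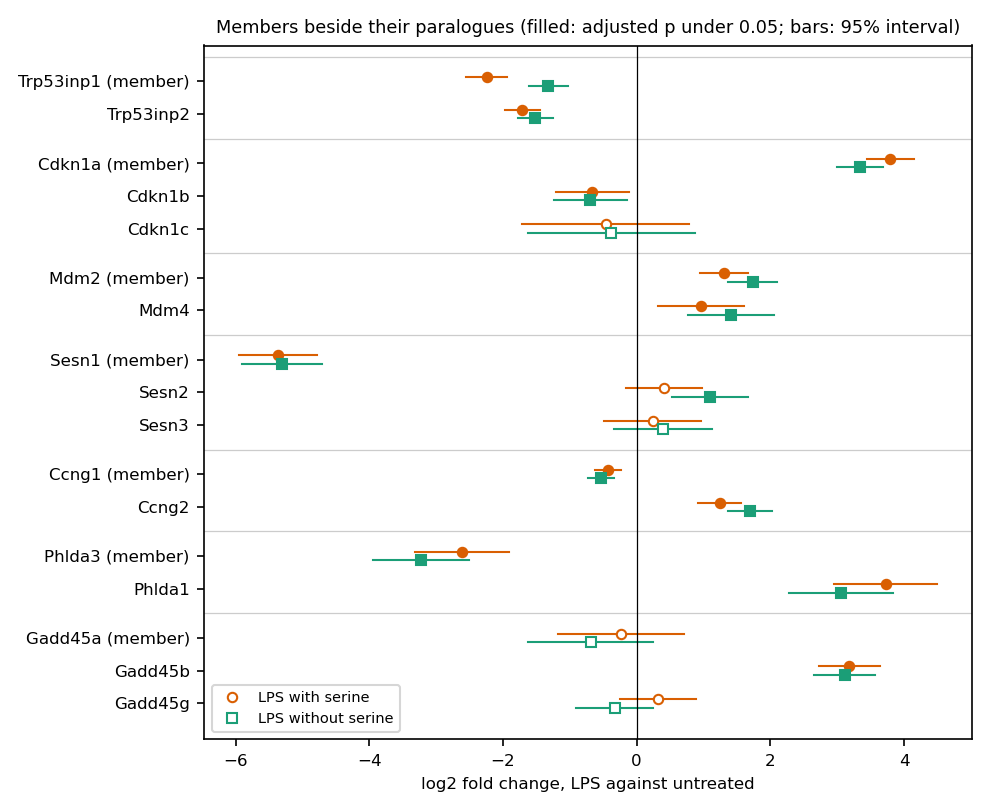
Log2 fold change after LPS, with serine (circles) and without (squares), of 7 of the genes beside their tested paralogues, with 95% intervals as bars and filled points for an adjusted p under 0.05. Under TMM scaling Sesn2, Sesn3, Ccng2, Phlda1, Gadd45b, Cdkn1b and Cdkn1c lie on the other side of 0 from their members in both media. Gadd45g does so with serine only. Of these values, Sesn2 with serine and those of Sesn3, Cdkn1c and Gadd45g were not called, nor was Gadd45a. With total counts Sesn2 with serine turns to -0.19, and Sesn3 in both media and Gadd45g with serine also turn negative.

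Withdrawal of serine from LPS-treated cells called none of the 10 paralogues in the unpaired fit and 2 with the replicate block. Over all genes 0.0545% rose in the unpaired fit and 0.663% with the block. Sesn2 went from 43.2 ± 15.05 CPM (SD, n = 4) to 92.4 ± 22.5 CPM, with groups that did not overlap, a log2 change of 1.12 with the block (edgeR adjusted p 0.0112) and 1.09 without it (0.184). Ccng2 went from 135 ± 28.5 to 189 ± 29.1 CPM, a change of 0.50 with the block (edgeR adjusted p 0.036) and 0.49 without (0.341). Both were singled out after their values were seen.

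Other p53 targets, 30 genes of which 26 were tested, held 7 that rose and 6 that fell with LPS and serine, 9 and 6 without, with medians of 0.11 in both media. Of all genes tested, 27.6% rose and 28.2% fell with serine and 27.1% and 29.7% without, so the counts of this list lie near the background. Fas, the death receptor, rose by 4.25 ± 0.27 and 4.04 ± 0.27, Tap1, the peptide transporter of antigen presentation, by 3.88 ± 0.18 and 3.82 ± 0.18, and Dram1, a lysosomal membrane protein of autophagy, by 3.13 ± 0.13 and 3.23 ± 0.13. The DNA repair gene Xpc fell by 2.63 ± 0.16 and 2.49 ± 0.16. The repair polymerase gene Polk fell by 1.496 ± 0.31 and 1.29 ± 0.31, and Rchy1, a ubiquitin ligase that acts on p53, by 1.28 ± 0.26 and 1.21 ± 0.26. Gdf15, a stress cytokine, changed by 0.82 ± 0.31 without serine and 0.75 ± 0.31 with it (edgeR adjusted p 0.0308 and 0.0504). The call was unstable, lost in 7 of 24 alternatives without serine and gained in 8 of 24 with it. Without serine the change was 0.26 with total counts and 0.45 without replicate 1 of the LPS-treated cells (edgeR adjusted p 0.46 and 0.179), and with serine it was 0.40 to 0.90 with 1 library left out. On withdrawal in LPS-treated cells none passed unpaired, and with the block 2 did, where 0.663% of all genes rose. These were Sesn2 and Bbc3, which encodes the apoptosis inducer PUMA (0.70, edgeR adjusted p 0.0147, and 0.117 without the block).

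Of 21 genes known to regulate p53, 19 were tested, and 7 rose and 4 fell with LPS and serine, 9 and 4 without, with medians of 0.25 and 0.40. Over all genes tested, 27.6% rose and 28.2% fell with serine, and 27.1% and 29.7% without. Cop1, a ubiquitin ligase of p53, rose by 1.16 ± 0.10 and 1.10 ± 0.10, and Atm, the kinase of the DNA break response, by 1.09 ± 0.29 and 1.31 ± 0.29, though Atm missed the threshold in both media when scaled by total counts (0.47 and 0.71). Without serine the Atm pairs changed by 0.82, 1.19, 1.23 and 3.22 for replicates 1 to 4, the last holding the shallow library. Chek2, a checkpoint kinase that acts on p53, fell by 3.89 ± 0.40 and 3.45 ± 0.39, Prkdc, another DNA break kinase, by 1.62 ± 0.24 and 1.22 ± 0.24, and Ppp1r13l, which encodes the p53 inhibitor iASPP, by 1.02 ± 0.30 and 0.74 ± 0.30. The Ppp1r13l call without serine was lost in 12 of 24 alternatives, among them the fits without replicates 3 and 4 of the LPS-treated cells (-0.61 and -0.54, edgeR adjusted p 0.125 and 0.137), and it ranged from -1.03 to -0.54 with 1 library left out. The acetyltransferase Crebbp and the p53 kinase Hipk2 passed without serine (0.40 ± 0.13 and 0.67 ± 0.25) and not with it (0.25 ± 0.13 and 0.49 ± 0.25, edgeR adjusted p 0.106 for each), and scaling by total counts turned Crebbp negative in both media (-0.37 and -0.18) and Hipk2 with serine (-0.13). Without serine the Hipk2 call was lost in 7 of 24 alternatives: it was 0.068 with total counts (edgeR adjusted p 0.831), and 0.61 to 0.68 when 1 of replicate 1 of the untreated or replicates 2, 3 and 4 of the LPS-treated cells was left out (0.052 to 0.0717). Without the shallow library it was 0.44 and still called. Crebbp was 0.31 without replicate 1 of the LPS-treated cells lacking serine and was then not called (edgeR adjusted p 0.0578).

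Cell cycle genes that p21 is known to repress were measured beside Cdkn1a. Of 15, 13 were tested. LPS lowered 28.2% and raised 27.6% of all genes tested with serine, and 29.7% and 27.1% without. With LPS and serine 3 fell, Ccna2 by 2.12 ± 0.58, Cdc20 by 1.37 ± 0.48 and Cdk1 by 1.28 ± 0.36, and 2 rose, Ccne1 by 1.96 ± 0.28 and Mki67 by 1.80 ± 0.35. The Cdc20 call with serine was lost without replicate 3 of the untreated cells or replicates 3 or 4 of the LPS-treated cells (-1.16 to -1.20). Without serine 7 fell and the same 2 rose. The added ones were Ccnb1 (-2.10 ± 0.60), Birc5 (-2.05 ± 0.61), Bub1 (-1.85 ± 0.60) and Ccne2 (-0.94 ± 0.34), whose values with serine were -1.14, -0.19, -0.70 and -0.56. Without serine Ccnb1, Birc5 and Bub1 had a value in 23 of 24 alternatives. Their levels are not given here, and a limit from low counts was not tested. Of the 7, Ccna2 (-1.39) lost its call in 7 of 24 alternatives, Ccne2 in 4 of 24 and Bub1 in 3 of 23. Without replicate 2 of the untreated cells all 3 lost it, at -0.40, -0.79 and -1.43 (edgeR adjusted p 0.433, 0.0803 and 0.0663). Leaving out replicate 1, 3 or 4 of the LPS-treated cells also ended the Ccna2 call, replicate 3 or 4 that of Ccne2 and replicate 1 that of Bub1. The median was -0.74 with serine and -1.39 without, and no gene of the list passed in the difference between the withdrawals.

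Other factors known to act on these 9 genes were a list of 16, all tested. With LPS 6 rose and 4 fell with serine, and 7 and 4 without, with medians of 0.12 and 0.48. The shares of all genes tested were 27.6% and 28.2% with serine and 27.1% and 29.7% without. The NF-kB subunit genes Nfkb1 and Rela rose by 3.36 ± 0.12 and 1.44 ± 0.10 with serine and 3.40 ± 0.12 and 1.597 ± 0.10 without, and Cebpb by 2.33 ± 0.36 and 1.56 ± 0.35. The forkhead factor genes Foxo3 and Foxo4, known activators of sestrin genes, fell by 2.52 ± 0.11 and 1.81 ± 0.19 with serine and by 2.05 ± 0.11 and 1.63 ± 0.19 without, as did Cebpa (-3.02 ± 0.17 and -2.68 ± 0.16). Klf4 passed without serine (0.59 ± 0.16, edgeR adjusted p 0.00589) and not with it (0.06 ± 0.16, 0.77). Scaled by total counts, the value with serine was -0.55 and called lower (edgeR adjusted p 0.0155). With total counts the value without serine was 0.0015 and not called (edgeR adjusted p 0.995). On withdrawal in LPS-treated cells the unpaired fit called none and the block called 3, where 0.663% of all genes rose. All 3 were higher and singled out after their values were seen: Ddit3 (1.33), Klf4 (0.86) and Atf4 (0.63), with edgeR adjusted p of 0.00679, 0.0171 and 0.0428.

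The genes with the most similar course to 4 of the 9 were found by the correlation of log2 CPM over the 16 libraries. These libraries fall into an untreated and an LPS-treated cluster, share their scaling, and give no independent points, so the values are descriptions only. For Cdkn1a they were Src (r = 0.999), Gk (0.997) and Prkcd (0.997), and for Sesn1 Mxd4 (0.995), Itgb5 (0.994) and Rab3il1 (0.992). Trp53inp1 ran closest to Dcaf8 (0.984), Nbr1 (0.981) and Cxcr4 (0.981), and Trp53 to Opa3 (0.951), Mak16 (0.948) and Rrs1 (0.946).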

How the data were processed

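Per the labels' protocols, RNA libraries were made with a kit that does not mark the strand, so overlapping genes are not told apart. The authors deposited raw counts per Ensembl gene, and the submitters' processing notes name Trimmomatic 0.33, STAR, SAMtools, HTSeq, edgeR and mm10, with no role given. The authors' deposited comparison tables gave their log2 fold changes and adjusted p-values. The tests used edgeR 4.0.16 under R 4.3.3: default low-count filter, TMM scaling and a robust quasi-likelihood fit of 4 group means to 16 libraries, giving 5 comparisons with two-sided tests. DESeq2 1.42.0 was an alternative. The method was tested on simulated data. Another 24 per-sample columns were left out. No 2 of the 120 pairs of libraries were copies. Deviations of same-numbered libraries correlated at 0.125 to 0.66, over the criterion of 0.1 for each pair. Those of differently numbered libraries ran from -0.373 to 0.141, so some also passed it. In each comparison of groups the lowest same-numbered value was above the highest other one, so the numbers pair the samples. Named genes were the 9 members, their tested paralogues, and from each other list the 3 lowest and 3 highest genes called with LPS and serine and up to 5 called elsewhere, plus 3 genes of similar course. The members and lists were chosen with earlier results of these data known.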

Additional observations from a re-analysis of the deposited data

Results flagged for a closer look

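Among 36 sets of 4 values (9 genes in 4 groups), 4 had a library far from the other 3, where chance alone gives about 1 in 20. All 4 were replicate 1 after LPS: Gadd45a at 86.0 CPM with serine (next 30.04) and 108 CPM without (next 38.6), Mdm2 at 930.2 CPM without serine (next 713), and Cdkn1a at 2508 CPM without serine (next 2149.8). Cdkn1a was also marked because its withdrawal values were all higher in untreated and all lower in LPS-treated pairs, with a tested difference of -0.46 (log2) that did not pass.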

How the results depend on the processing

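The LPS directions of Cdkn1a, Mdm2, Sesn1, Phlda3, Trp53inp1, Zmat3 and Ccng1 and their calls held under every alternative run, and of 432 fits of the 9 genes in the LPS comparisons 424 kept both direction and call. The number of the 9 called on withdrawal in LPS-treated cells was 1 in the unpaired fit and 1 with the replicate block. It was 0 with total counts, without the filter and with replicates 2 to 4 only (0.79 for Trp53inp1, edgeR adjusted p 0.264), 0 to 2 with 1 library left out, and 3 with the block and the shallow library left out, which also gave 1 in untreated cells and 1 in the difference. Without the block, leaving out that library alone called Trp53inp1 and Mdm2 (edgeR adjusted p 0.00148 and 0.041). Over all genes, calls on withdrawal in LPS-treated cells were 7 unpaired, 98 with the block and 110 with DESeq2. With the replicate block no call of the 9 genes changed on 16 libraries. Total counts reversed Trp53 (-0.26 with serine, -0.16 without), Sesn2 (-0.19), Crebbp (-0.37 and -0.18), Hipk2 (-0.13), Gadd45g (-0.30), Sesn3 (-0.38 and -0.21) and Klf4 (-0.55). In the unpaired TMM fit none of these was called in the same comparison except Trp53 and, without serine, Crebbp. Total counts called Klf4 lower with serine (edgeR adjusted p 0.0155), and Gadd45a without serine (-1.21, edgeR adjusted p 0.0196). Without the shallow library and with the block Trp53inp1 in untreated cells was 0.044 and Gadd45g without serine 0.082. With replicates 2 to 4 only the Sesn1 difference was -0.29. Signs of uncalled values also turned when 1 library was left out. These ranges were -0.12 to 0.062 for Trp53 on withdrawal with LPS. They were -0.015 to 0.16, -0.13 to 0.27 and -1.06 to 0.20 for the difference of Trp53, Sesn1 and Gadd45a. In untreated cells they were -0.19 to 0.013 for Trp53inp1, -0.046 to 0.24 for Mdm2 and -0.081 to 0.024 for Ccng1. In LPS-treated cells they were -0.048 to 0.21 for Zmat3, -0.53 to 0.077 for Phlda3 and -0.25 to 1.02 for Gadd45a. For LPS they were -0.50 to 0.063 for Gadd45g without serine, and -0.017 to 0.34, -0.63 to 0.44 and -0.013 to 0.19 for Sesn3, Birc5 and Klf4 with serine. The cause was not tested. Of the 9 genes, low counts limit Sesn1 and Phlda3 after LPS.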
